A study of Mus musculus with 13 samples.

Results

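Open chromatin regions of the distal forelimb (DFL) that were found in one genotype and not in the other were compared between wild-type (wt) mouse embryos and embryos carrying allele 542. A region was called wt-only when it was among the 50000 strongest regions of both wt DFL libraries and of no 542 DFL library, and 542-only in the reverse case. Of 67902 consensus regions in the 4 lists, 5239 met this rule. There were 2910 wt-only regions, 4.29% of the consensus regions, and 2329 542-only regions, 3.43%. A further 34230 regions were in all 4 lists. All embryos were of the B6CBAF1 strain, untreated and collected at E12.5. Embryos of allele 542 were homozygous for 1 copy of an enhancer and reporter construct in the domain telomeric to the HoxD cluster, derived from 1 founder line, and the wt embryos lacked it. Each library was made from 50000 cells of limb tissue pooled over several embryos, with 2 libraries per genotype. The libraries of 542 were mapped to a genome rebuilt with the insertion and those of wt to the reference, so that genotype, breeding line and mapping genome cannot be told apart.

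ATAC-seq uses the Tn5 transposase, which cuts where nucleosomes leave DNA exposed, so that active promoters and enhancers appear as regions rich in insertions. In the limb bud, Hoxd genes are controlled from a centromeric domain (C-DOM), whose enhancers act in distal cells that form the digits, and a telomeric domain (T-DOM), whose enhancers act in proximal cells. II1 is an enhancer of C-DOM that works with the HOX13 transcription factors. In allele 542 a copy of it, with an HBB promoter and LacZ, sits in T-DOM.

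The dissected tissue was checked by open regions at transcript starts. Hoxa13, a factor of the digit territory, had a start region in the lists of wt DFL (fold over local background 8.80 and 9.34) and 542 DFL (10.1 and 8.91). Hoxd13 had one at 9.78 and 9.55 in wt and at 9.35 and 8.67 in 542. Neither gene had a start region in any forebrain (FB) list, as the limb label requires. In proximal forelimb (PFL) Hoxa13 had one at 4.56 and 6.34 in wt, and Hoxd13 at 4.18 and 4.97. The other distal mesenchyme markers checked, Msx1, Msx2, Prrx1 and Lhx9, did not set limb apart from FB. Each had a start region in every DFL and FB list, with Msx2 at 7.23 and 6.88 in wt DFL and 11.7 and 8.78 in wt FB. Meis2, a factor of proximal limb cells, had a start region in both wt lists (5.65 and 4.99) and in no 542 DFL or Bolt2021 list. Meis1, the other proximal marker checked, had one in both genotypes, at 6.01 and 7.43 in wt DFL and 4.38 and 6.39 in 542 DFL. Of the 20 proximal limb factors read below, 15 and 15 had one in wt and 15 and 12 in 542, against 19 of 21 distal factors in each of the 4 libraries. Markers of other cell types were also open. Ectoderm genes had a start region for 8 and 9 of 19 markers in wt and for 6 and 9 in 542, with a summed fold of 60.6 and 67.4 against 45.8 and 64.6, and Krt5, Krt14 and Trp63 had none. Muscle genes had one for 6 and 6 of 20 markers in wt and for 5 and 5 in 542 (summed fold 43.8 and 43.7 against 36.1 and 37.8), with none at Pax3, Pax7 or Myog. Blood and endothelium genes had one for 12 and 14 of 29 markers in wt and for 12 and 15 in 542 (118 and 130 against 108 and 128), with none at Cdh5, Pecam1, Ptprc or Gata1. For nerve and neural crest genes the numbers were 19 and 17 of 24 in wt and 18 and 17 in 542 (189 and 174 against 159 and 167), with none at Sox10. A smaller number of open cells and less opening per cell cannot be told apart in such libraries.

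Depth moved with the genotype. The wt DFL libraries held an estimated 54.5 and 44.0 M (mega) tags and the 542 DFL libraries 41.4 and 40.2 M. The region at rank 50000 had a −log10 q of 12.7 and 11.0 in wt and of 8.70 and 8.97 in 542. Its part in the counts was not tested beyond the lists of other lengths given at the end. An additional wt DFL library, named Bolt2021 and processed anew from an earlier study, was deeper (78.0 M tags) and served as a check.

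Sequence is shown for 5 regions on which the description turns, from GRCm38 (mm10), plus strand, 100 bases to each side of the strongest summit. The first is a wt-only region with similar sequence at 4 other wt-only regions, and with no match to the motifs searched. The second is the strongest 542-only region. The other 3 lie in the HoxD locus and hold the letters searched for HOX13 factors (CAATAAA or CCATAAA on either strand), which are in capitals.
Ywhaq region, wt-only, chr12:21784453-21784653: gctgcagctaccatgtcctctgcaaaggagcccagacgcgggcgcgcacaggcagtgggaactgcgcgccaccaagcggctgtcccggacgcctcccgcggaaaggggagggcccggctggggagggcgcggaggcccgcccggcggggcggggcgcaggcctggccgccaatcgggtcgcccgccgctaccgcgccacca
Ear1 region, 542-only, chr14:43812544-43812744: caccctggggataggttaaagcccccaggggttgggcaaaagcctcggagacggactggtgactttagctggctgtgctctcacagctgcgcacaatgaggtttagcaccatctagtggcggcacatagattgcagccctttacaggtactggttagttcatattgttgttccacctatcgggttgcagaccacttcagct
Atp5g3 region beside II1, 542-only, chr2:74074723-74074923: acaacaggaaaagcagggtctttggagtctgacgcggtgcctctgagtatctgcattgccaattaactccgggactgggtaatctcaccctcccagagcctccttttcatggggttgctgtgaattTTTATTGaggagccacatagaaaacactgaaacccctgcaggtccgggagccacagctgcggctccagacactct
Hoxd9 region, 542-only, chr2:74698839-74699039: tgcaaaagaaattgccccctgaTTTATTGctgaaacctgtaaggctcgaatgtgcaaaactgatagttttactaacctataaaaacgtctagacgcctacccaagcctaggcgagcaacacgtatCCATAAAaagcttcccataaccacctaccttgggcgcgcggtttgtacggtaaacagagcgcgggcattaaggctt
Hnrnpa3 region, wt-only, chr2:75599183-75599383: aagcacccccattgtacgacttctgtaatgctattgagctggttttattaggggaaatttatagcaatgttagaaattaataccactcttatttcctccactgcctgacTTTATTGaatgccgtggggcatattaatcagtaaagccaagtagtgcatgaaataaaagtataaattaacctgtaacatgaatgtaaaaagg

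Most members were regions of moderate strength. The fold of the wt-only regions ran from 2.36 to 18.5 in wt replicate 1, with a median of 5.71, and from 2.29 to 19.3 in wt replicate 2, with a median of 5.79. The 542-only regions ran from 2.34 to 15.4 in 542 replicate 1 (median 5.35) and from 2.47 to 12.7 in 542 replicate 2 (median 5.45). Over the 2 libraries that held them, the median fold was 5.84 for wt-only and 5.50 for 542-only regions, below the 8.64 of regions in all 4 lists. Members were also narrower. The median width was 605 bp for wt-only, 500 bp for 542-only and 899 bp for regions in all 4 lists.

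Absence from a list was seldom absence of a called region. At any rank, 66.7% and 76.0% of the wt-only regions were called in the 542 DFL libraries, with a median fold of 3.69 and 3.82. Of the 542-only regions, 89.5% and 80.5% were called in the wt DFL libraries, with a median fold of 3.81 and 3.85. Only 386 wt-only regions (0.568% of the consensus regions) and 112 542-only regions (0.165%) were called at no rank in the other genotype. Many members lay close to the limit of the lists, where ties in −log10 q and fold were broken by chromosome name and start. The weaker of its own 2 ranks was between 40001 and 50000 for 1859 wt-only regions (63.9%) and 1580 542-only regions (67.8%). Just outside, the best rank in the other genotype was between 50001 and 60000 for 1303 and 1144 regions. Within the strongest 20000 of both its own libraries were 11 wt-only and 4 542-only regions.

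Strong members formed a small upper end, and several wt-only regions at this end were alike in sequence. The strongest was the intergenic region chr12:23009490-23010702, 769947 bp from the nearest coding start (Gm10330) and 34 bp from the start of the noncoding gene 2410018L13Rik, with a fold of 18.5 and 19.3 in wt DFL and no call in 542 DFL. The next, chr12:21783943-21784942 (nearest coding gene Ywhaq, which encodes a phosphoserine-binding adaptor), had a fold of 17.4 and 18.2 in wt and no call in 542. Another, at the start of 9030624G23Rik (chr12:24096659-24097569), had 10.8 and 10.5 in wt and again no call in 542. Within the 2.47 Mb from the first to the last of these regions, 5 of 8 consensus regions were wt-only, and none of the 5 was called at any rank in 542 DFL.

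The same 5 regions of chromosome 12 were looked up in the libraries that did not choose them. In Bolt2021 their fold ran from 12.2 to 22.1. They were called in each of the wt proximal forelimb (PFL) and wt FB libraries and in none of the 542 PFL or FB libraries. For chr12:23009490-23010702 the values were 17.9 and 15.8 in wt PFL and 13.7 and 16.9 in wt FB. For chr12:21783943-21784942 they were 17.3 and 14.5 in wt PFL and 11.0 and 12.48 in wt FB. Among the 18 regions compared by sequence, these 5 were the only ones alike, with 89.0% to 96.3% identity over 759 to 1014 bp in their 10 pairs. The copy search used the 300 bp on each summit, with at least 90% identity over at least 80% of this window. By this search, chr12:23009490-23010702 had 17 other places in the genome and chr12:21783943-21784942 had 13. Not all regions there were wt-only. At chr12:23189066-23189948, in the same interval, the fold was 23.8 and 25.9 in wt DFL and 20.8 and 21.3 in 542 DFL. The part of sequence copies in the result was not tested.

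The other strong wt-only regions stood alone, and most had a weaker region in 542. At chr13:14717571-14718389, 87686 bp from AW209491, the fold was 10.8 and 12.1 in wt DFL and 3.13 and 4.53 in 542 DFL. An intronic region at chr1:134816571-134817107 near Syt2, a calcium sensor of synaptic vesicles, had 10.3 and 11.6 in wt and 3.32 and 3.78 in 542. A region in an intron near Epg5, an autophagy gene (chr18:77879734-77880292), had 8.20 and 13.5 in wt and 3.13 and 4.34 in 542. In each of these the folds of the 2 genotypes did not overlap. The choice by rank made this likely, since 99.4% of the wt-only regions called in all 4 libraries had folds apart. Bolt2021 sided with wt at 15.5, 15.3 and 10.9. The region near C1s1, a complement protease (chr6:124552950-124553979), had 9.44 and 11.9 in wt DFL, 11.3 in Bolt2021, and was called in no 542, PFL or FB library. Rgs6, a regulator of G-protein signaling, had an intronic region (chr12:82848277-82848843) at 11.6 and 8.93 in wt and 3.503 and 3.78 in 542.

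Of the 8 strongest 542-only regions, 3 had no call in either wt DFL library. The region near Ear1, an eosinophil-associated ribonuclease (chr14:43812452-43812993), had a fold of 15.4 and 12.7 in 542 DFL and no call in the 2 wt DFL libraries that chose it, while Bolt2021 called it at 5.46. In FB it was open in both genotypes, at 18.8 and 13.5 in wt FB and 20.7 and 17.1 in 542 FB. In PFL it was at 4.99 and 3.32 in wt and at 12.2 and 11.5 in 542. Of the 300 bp on its summit, 79.7% were repeat-masked. An intronic region near Sntg1, which encodes a syntrophin (chr1:8632219-8632803), had 13.1 and 8.31 in 542 DFL, 3.96 in wt replicate 1 and no call in any PFL, FB or Bolt2021 library. An exonic region near Zswim2 (chr2:83881393-83882136) had 9.76 and 10.99 in 542 DFL against 3.96 in wt replicate 1 and 5.57 in Bolt2021. Both regions were thus called at a low fold in wt replicate 1 and not in wt replicate 2.

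Transcription factor and ligand genes were nearest to several of the others. A region near Tfap2a, a factor of ectoderm and neural crest (chr13:40585125-40585915), had 8.11 and 11.7 in 542 DFL and 4.69 and 4.90 in wt DFL. A region near Tfec, a factor related to Mitf (chr6:16359886-16360391), had 12.46 and 7.04 in 542 DFL and no call in wt DFL or Bolt2021. Its 542 PFL values were 6.34 and 8.19, with no call in wt PFL. A region near Kitl, the ligand of the Kit receptor (chr10:100152871-100153197), had 10.0 and 9.19 in 542 DFL. The other 542 libraries had 5.46 and 4.91 (PFL) and 8.10 and 8.31 (FB). It was called in no wt library of any tissue. The remaining regions of the 8 were near Fbxo33, an F-box gene (chr12:59961131-59961851, 10.3 and 10.0 in 542 DFL and 4.69 and 4.73 in wt DFL), and Zfp804a, a zinc finger gene (chr2:81669678-81670365, 10.1 and 8.497 in 542 DFL and 4.10 in wt replicate 1).

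**Figure D1:**
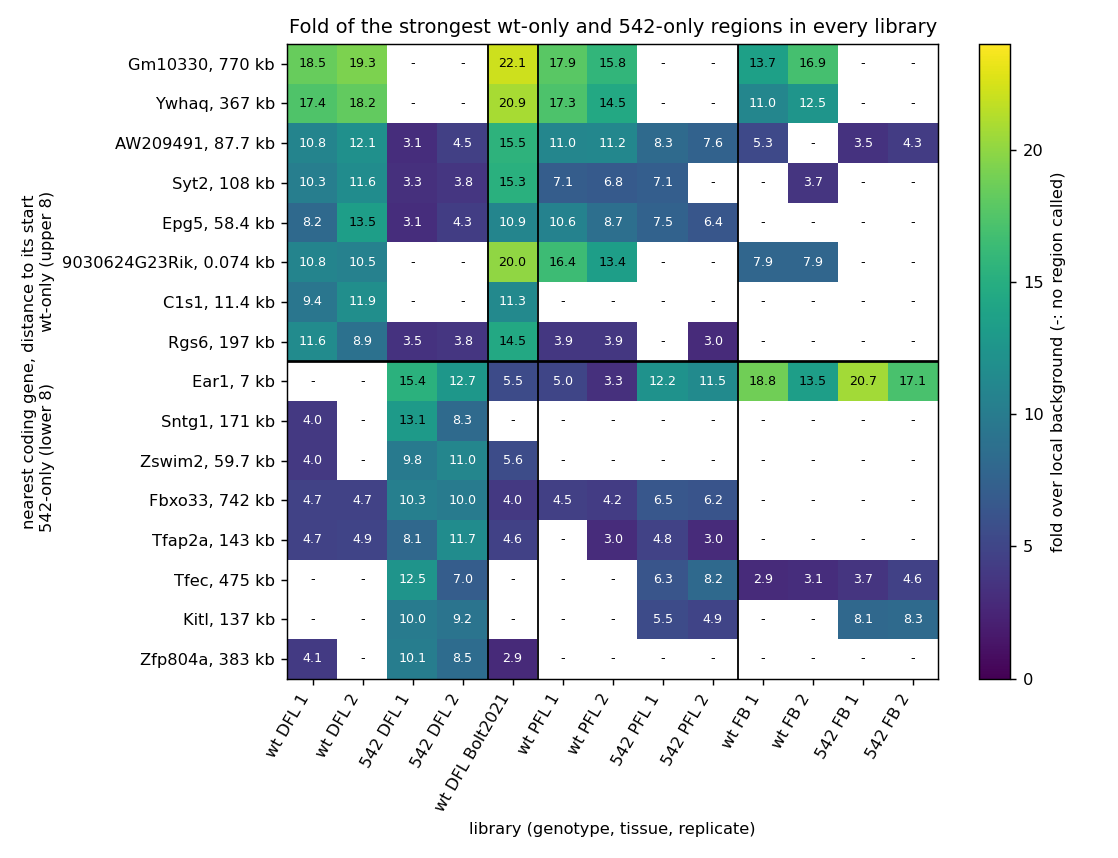
Fold over local background (color and number, a dash where no region was called at any rank) of the 8 wt-only and the 8 542-only regions with the highest mean fold, in each of the 13 libraries. Rows name the nearest coding gene and the distance to its start. The 3 wt-only regions of chromosome 12 (Gm10330, Ywhaq and 9030624G23Rik) were called in each wt library and in no 542 library, and the Kitl region in each 542 library and in no wt library.

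Promoters were rare among members. Summits within 1000 bp of a protein-coding start made up 174 wt-only regions (5.98%) and 73 542-only regions (3.13%), against 20.4% of all consensus regions and 35.4% of those in all 4 lists. The wt-only starts with the highest fold, apart from 9030624G23Rik, belonged to Snf8, Wbp1l and Fgfr4. At Snf8, a subunit of the endosomal ESCRT machinery (chr11:96034588-96035297), the fold was 7.33 and 11.9 in wt and 4.06 and 3.78 in 542. At Wbp1l (chr19:46622844-46623569) it was 10.6 and 7.66 in wt and 4.06 and 4.17 in 542. At Fgfr4, a receptor of Fgf ligands (chr13:55152545-55153263), it was 6.86 and 9.98 in wt, 3.87 in 542 replicate 1 and not called in replicate 2. Each of the 3 was called in all 4 PFL libraries.

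Among 542-only starts, Aplnr, the apelin receptor of endothelial cells (chr2:85135946-85136515), had 8.12 and 6.06 in 542 and 4.10 and 4.11 in wt. Hmbox1, a homeobox gene (chr14:64902255-64902749), had 8.45 and 5.66 in 542 and 4.69 and 4.73 in wt, while Bolt2021 had 8.03. Oit1 (chr14:8378672-8379391) had 5.35 and 8.42 in 542 and 4.54 and 3.45 in wt, and Bolt2021 had 7.20. At both starts the third wt library thus had a fold within the range of the 542 libraries. Gm13288 (chr4:88805819-88806117) had 7.19 and 6.42 in 542 and 4.90 in wt replicate 2, and 14 other places in the genome resembled it.

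Members lay farther from coding starts than consensus regions in general. The median distance of a summit to the nearest protein-coding start was 40554 bp for wt-only and 64671 bp for 542-only regions, against 30375 bp for all consensus regions. Distances of 10 to 100 kb held 50.5% of the wt-only and 43.9% of the 542-only regions. Distances over 500 kb held 4.23% and 8.16%, against 4.35% of all consensus regions. By annotation, 47.0% of the wt-only summits were intronic and 42.3% intergenic, and 44.4% and 48.4% of the 542-only summits.

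**Figure D2:**
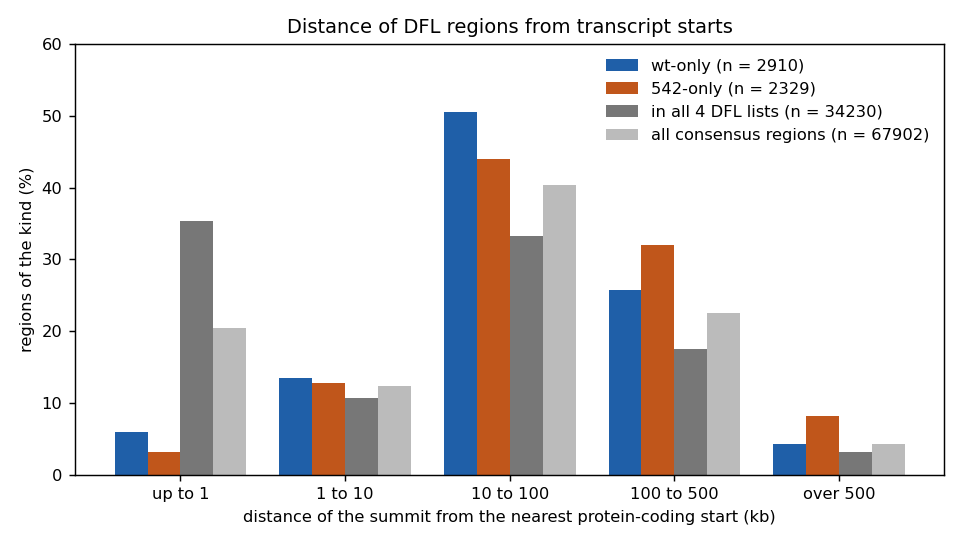
Percent of regions (bars from 0) in 5 classes of distance between the summit and the nearest protein-coding start, for wt-only, 542-only, regions in all 4 DFL lists and all consensus regions. The class up to 1 kb held 5.98% and 3.13% of the members against 35.4% of regions in all 4 lists, and the class over 500 kb held 8.16% of the 542-only regions.

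Members were found on every autosome. Ties at the limit of the lists were broken by chromosome name, and the part of this in the shares below was not tested. The share of consensus regions that were wt-only ran from 2.97% on chromosome 7 to 5.18% on chromosome 3. The 542-only share ran from 1.99% on chromosome 19 to 4.44% on chromosome 2, which carries the insertion, with 4.04% on chromosome 1. Along chromosome 2 the shares varied on both sides of the insertion. In the 10 Mb on its centromeric side 22 of 343 consensus regions (6.41%) were wt-only and 9 (2.62%) were 542-only. In the 10 Mb on the telomeric side the counts were 18 (5.29%) and 20 (5.88%) of 340. The highest 542-only share on this chromosome, 7.56% or 13 of 172, was 100 to 110 Mb from the insertion.

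In a few windows of 1 Mb members shared a gene. At chr9:117000001-118000000, 7 of 22 consensus regions were wt-only and all 7 were nearest to Rbms3, which encodes an RNA-binding protein. Their mean fold ran from 4.51 to 8.31, and all 7 were in the Bolt2021 list. At chr2:31000001-32000000, 7 of 26 regions were wt-only, of which 2 were nearest to Ass1, an enzyme of arginine synthesis. At chr18:56000001-57000000, 7 of 33 were wt-only, with 4 near Gramd3 and 2 near Lmnb1, which encodes lamin B1. Among 542-only regions, 6 of 37 at chr4:22000001-23000000 included 4 near Pou3f2, a neural POU factor. All 6 of 40 at chr2:45000001-46000000 were nearest to Zeb2, a repressor of epithelial genes, and 1 of them was in the Bolt2021 list. At chr2:178000001-179000000, 6 of 48 were 542-only, with 2 near Cdh26, a cadherin. The windows were picked for their counts and carry no test.

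Members were also counted over whole genes, and the genes named here were picked from those with the most members and carry no test. Over all consensus regions the shares were 4.29% wt-only and 3.43% 542-only. Rbms3 had 9 wt-only regions and 2 542-only regions among 40. Tenm2 had 6 wt-only and 5 542-only regions among 59, and Tenm3 6 and 2 among 78. Zfhx3, a homeobox factor, had 5 wt-only and no 542-only regions among 37, and Zfp521 had 6 wt-only and 3 542-only among 37. On the other side, Flrt2 had 8 542-only and 4 wt-only regions among 75, Zeb2 8 and 2 among 66, and Cdh2, N-cadherin, 7 and 1 among 44. All 5 Zfhx3 regions and 3 of the 6 wt-only Tenm2 regions were in the Bolt2021 list, and none of the 8 542-only regions near Flrt2 was.

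The members were then looked up in libraries that had not been used to choose them. In Bolt2021, the 50000 strongest regions included 1928 of the 2910 wt-only regions (66.3%, 95% exact binomial interval 64.5% to 68.0%) and 525 of the 2329 542-only regions (22.5%, 20.9% to 24.3%). The share over all consensus regions was 66.4%. Taken at any rank, Bolt2021 held 98.2% of the wt-only and 86.6% of the 542-only regions. Of the regions called at no rank in the other genotype, its list held 253 of 386 wt-only and 13 of 112 542-only regions. The intervals cover counting error only, and Bolt2021 is a single library.

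The wt-only regions were found more often in wt than in 542 libraries of PFL, whereas the direction for 542-only regions turned with the rank that counted as found. Of the wt-only regions, 56.5% and 55.7% were in the lists of the 2 wt PFL libraries and 43.8% and 42.6% in those of 542 PFL. Of the 542-only regions, 20.4% and 20.5% were in the wt PFL lists and 27.4% and 28.0% in the 542 PFL lists. The genotypes did not overlap in either set. In FB the distances were smaller, with 25.4% and 23.3% of the wt-only regions in wt and 21.8% and 22.3% in 542. For 542-only regions the FB values were 23.6% and 24.3% in wt and 26.7% and 26.0% in 542.

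Over both tissues the wt-only regions were found 7.56 percentage points more often in wt than in 542 libraries (40.2% against 32.6%). For the 542-only regions the difference was -4.82 points (22.2% against 27.0%). Genotype labels were exchanged within each tissue in an exact two-sided permutation test, and both differences gave p = 0.0556, the smallest value its 36 assignments allow, so that 0.05 could not be reached. Over all consensus regions the difference was 0.736 points (exact permutation p = 0.167). When the same 542-only regions were counted as found at any rank, the sign turned, with 56.5% and 55.3% in wt PFL against 51.9% and 50.5% in 542 PFL. Over both tissues the difference was then 2.51 points (49.2% against 46.7%, exact permutation p = 0.167). The wt-only regions at any rank differed by 10.2 points (exact permutation p = 0.0556) and all consensus regions by 4.19 points (exact permutation p = 0.111). With the members also chosen anew from all deposited regions, the 542-only difference was -0.955 points (exact permutation p = 0.556). The p-values measure only the spread between these pools. Depth again moved with genotype in PFL, with 48.8 and 52.7 M tags in wt PFL and 37.9 and 37.5 M in 542 PFL. In FB the genotypes overlapped, with 70.7 and 56.6 M in wt FB and 64.5 and 51.4 M in 542 FB. The part of depth was not tested.

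**Figure D3:**
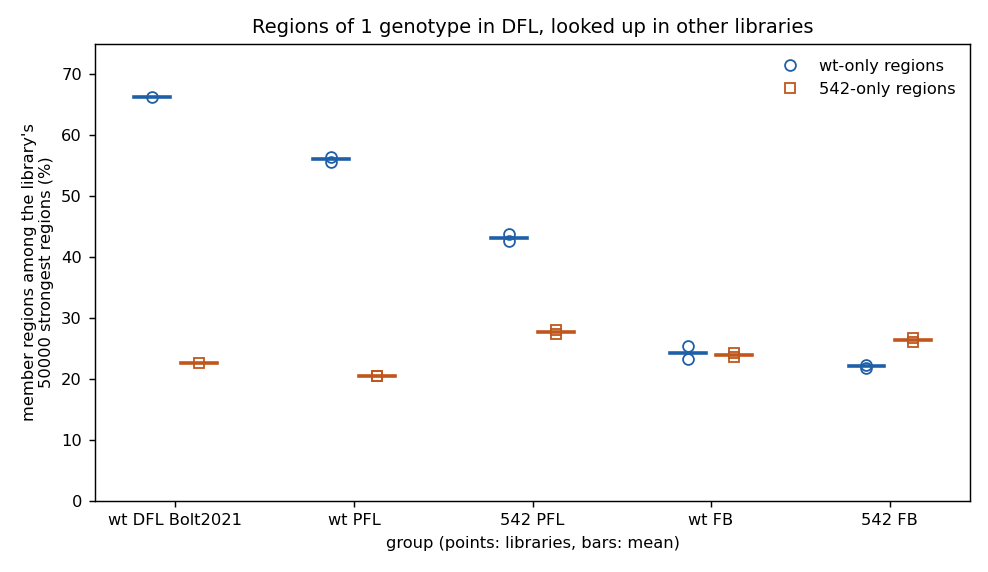
Percent of the 2910 wt-only (circles) and 2329 542-only (squares) regions that were among the 50000 strongest regions of libraries not used to choose them, by group, with 1 point per library and a bar at the mean. Wt-only regions were at 66.3% in Bolt2021, 56.5% and 55.7% in wt PFL and 43.8% and 42.6% in 542 PFL, whereas 542-only regions were highest in 542 PFL, at 27.4% and 28.0%.

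Region by region, the same contrast was met again for a minority. Of the wt-only regions, 242 (8.32%) were also in both wt PFL lists and no 542 PFL list, beside 2.47% of all consensus regions. Of the 542-only regions, 118 (5.07%) were also 542-only in PFL, beside 1.88%. In FB, 56 wt-only regions (1.92%) were wt-only, beside 0.887%, and 68 542-only regions (2.92%) were 542-only, beside 0.928%. The contrast recurred in PFL as well as FB for 16 wt-only (0.550%) and 17 542-only regions (0.730%). The share of all consensus regions with this pattern was not counted. None of the 8 PFL and FB lists held 677 wt-only (23.3%) and 969 542-only regions (41.6%), against 20.8% of all consensus regions.

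The HoxD locus, with both regulatory domains, held 74 consensus regions, of which 5 were wt-only (6.76%, against 4.29% over all consensus regions) and 2 were 542-only (2.70%, against 3.43%). For the whole locus, counts this small lie close to those shares. In T-DOM 4 of 33 regions were wt-only (12.1%) and none was 542-only. In C-DOM there was 1 of each among 30 regions (3.33%), and in the gene cluster 1 of 11 was 542-only (9.09%). The T-DOM and cluster shares were above those over all consensus regions, but rest on few regions and were not tested. In all 4 lists were 15 regions of C-DOM, 6 of the cluster and 16 of T-DOM. The region at the start of Hoxd13, whose summit lay just outside the gene span, was counted with C-DOM.

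The 4 wt-only regions of T-DOM lay on both sides of the insertion. The one nearest to Hnrnpa3, an RNA-binding protein gene at the telomeric end of the domain (chr2:75643159-75643601), had a fold of 7.76 and 7.88 in wt DFL and 4.34 in 542 replicate 2, with no call in replicate 1. In PFL it did not follow the genotype, at 7.72 and 6.03 in wt and 10.9 and 7.19 in 542. The second near Hnrnpa3 (chr2:75598454-75599656, with the HOX13 letters shown above) had 5.59 and 6.79 in wt and 2.77 and 4.34 in 542, and was called in no PFL or FB library. On the centromeric side of the insertion, nearest to Mtx2, a mitochondrial protein gene, chr2:75224395-75224967 had 7.47 and 6.13 in wt and 4.61 and 4.53 in 542. At chr2:75172004-75172685 the values were 5.03 and 6.54 in wt and 3.87 and 4.72 in 542, and Bolt2021 had 3.98, below both wt libraries.

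In C-DOM the wt-only region chr2:74243555-74244171 had 4.76 and 4.79 in wt DFL and 3.32 and 3.72 in 542 DFL. It was stronger in PFL of both genotypes, at 7.48 and 7.37 in wt and 8.45 and 7.28 in 542. The 542-only region of C-DOM, chr2:74074392-74074992, lay directly centromeric to the region over native II1, and had 4.90 and 4.83 in 542 and 4 and 2.71 in wt. Bolt2021 held this region in its list at 4.53, and in wt replicate 1 its rank was 50570, just past the limit. Native II1 itself (chr2:74075155-74076242) was in all 4 lists and no member, with 7.74 and 10.0 in wt, 10.6 in Bolt2021 and 6.01 and 6.03 in 542. Read pairs wholly within II1 have a second origin in the mutant genome and can be lost from 542 libraries there, and how many were lost was not measured. The 542-only region of the cluster lay in an intron 1212 bp from the start of Hoxd9 (chr2:74698279-74699251), with 5.15 and 5.75 in 542, 3.497 and 3.72 in wt and 5.42 in Bolt2021. Inside the insertion each 542 DFL library had 2 regions, the stronger with a fold of 6.12 and 6.47.

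The other Hox clusters were read after their values had been seen. Near Hoxc genes 4 of 11 regions were 542-only, 1 each at Hoxc13, Hoxc10, Hoxc8 and Hoxc4, and none was wt-only. Near Hoxa genes 2 of 13 were wt-only, both at Hoxa10, and near Hoxb genes 1 of 5. Over all consensus regions the shares were 3.43% 542-only and 4.29% wt-only.

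**Figure D4:**
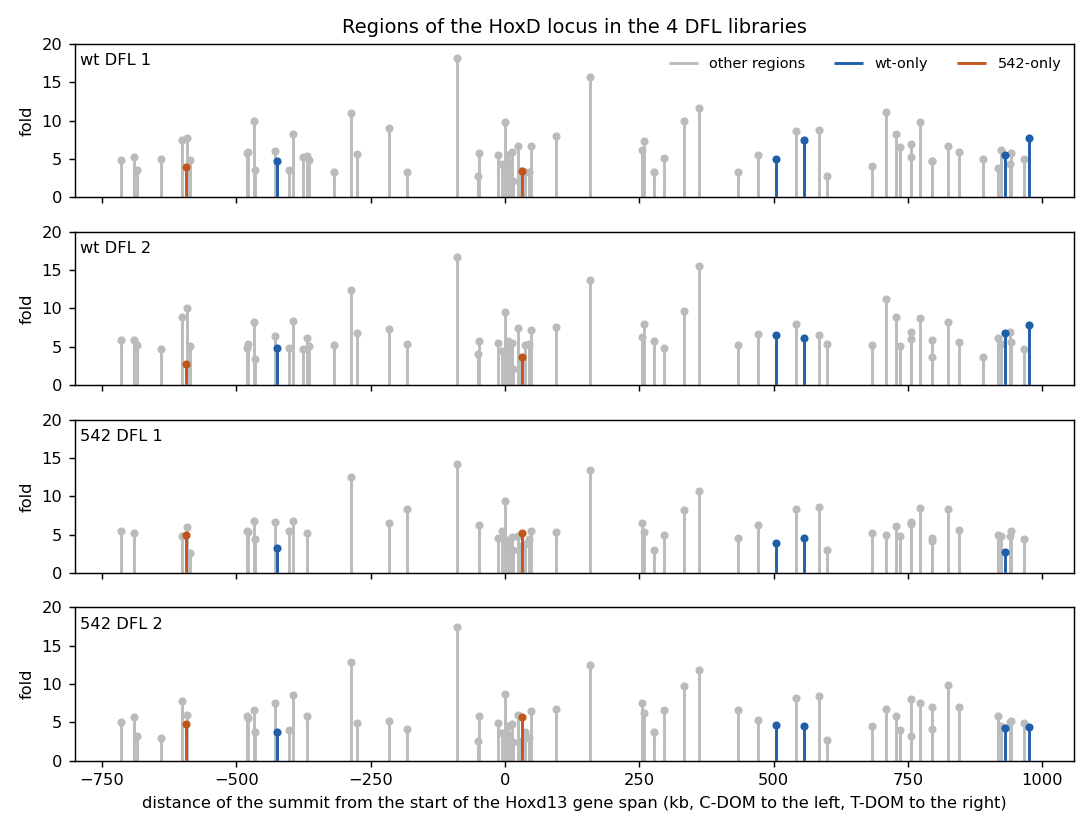
Fold over local background of each called region of the HoxD locus, at any rank, against the distance of its summit from Hoxd13 in kb (C-DOM to the left, T-DOM to the right), for the 4 DFL libraries. Members are colored. The wt-only regions reached 7.76 and 7.88 in wt and at most 4.72 in 542, and the 542-only regions at most 5.75 in 542.

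Gene lists were read by the nearest coding gene of each region, and each list was set beside the 4.29% and 3.43% found over all consensus regions. The lists carry no test, and the small numbers of members limit their precision. Regions near distal limb factors were 542-only in 14 of 171 cases (8.19%) and wt-only in 5 (2.92%). Regions near proximal limb factors were 542-only in 5 of 187 cases (2.67%) and wt-only in 12 (6.42%).

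Among distal factors, 3 of 15 regions near Sp8, a factor of the limb ectoderm and ridge, were 542-only, as were 2 of 5 near Sall4, a zinc finger factor of the limb bud, 2 of 16 near Lmx1b, the dorsal limb factor, and 2 of 25 near Tfap2b. The strongest was near Sall4 (chr2:168831630-168832448), with a fold of 6.64 and 5.85 in 542 and 2.64 and 4.03 in wt. Near Zbtb16, a factor of limb patterning, chr9:48860398-48861016 had 5.90 and 6.04 in 542 and 4.25 in wt replicate 1. Bolt2021 held 8 of these 14 regions in its list among them the Zbtb16 region (7.93), while the Sall4 region (5.89) was outside it. Of 14, 11 were in no PFL list, as were 56.3% of all 542-only regions and 27.1% of all consensus regions. The wt-only regions of this list were near Sall1, Lhx2 and Lhx9. Lhx2, a factor kept on by the ridge, had chr2:38431232-38432024 at 6.46 and 6.19 in wt and 3.99 and 3.44 in 542, and Sall1 had chr8:89641354-89642546 at 6.15 and 6.68 in wt and 2.58 and 3.78 in 542. All 5 were in the Bolt2021 list.

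Among proximal factors, 3 of 14 regions near Irx5 and 2 of 2 near Hoxa10 were wt-only. Near Tbx5, the factor that starts the forelimb, chr5:119972828-119973677 had 6.89 and 7.004 in wt, 12.3 in Bolt2021 and 4.06 and 4.53 in 542. Near Irx5, an Iroquois factor, chr8:92179340-92179714 had 6.25 and 6.05 in wt and 4.61 and 4.53 in 542. Bolt2021 held 9 of the 12. The 5 542-only regions included the start of Meis3 (chr7:16174911-16175511), a proximal factor, at 5.33 and 5.67 in 542 DFL and 4.54 and 3.85 in wt DFL. In FB it was stronger, at 14.0 and 13.2 in wt and 13.1 and 14.6 in 542. Near Meis1, chr11:18930203-18930864 had 5.35 and 6.23 in 542 and 3.52 and 2.63 in wt.

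Of the signaling lists, the Fgf pathway had 18 542-only (5.66%) and 12 wt-only regions (3.77%) among 318. Flrt2, a membrane protein that binds Fgf receptors, accounted for 8 542-only and 4 wt-only regions among its 75, and Flrt3 for 4 542-only regions among 33. The strongest Flrt2 region (chr12:95384524-95384958) had 9.01 and 7.05 in 542 and 3.66 and 3.85 in wt. Fgf10, the mesenchymal ligand that drives outgrowth, had 3 542-only regions among 27, while Fgf9 had 3 wt-only regions among 14. The strongest near Fgf9 (chr14:58306698-58307533) had 10.3 and 7.35 in wt and 4.72 in 542 replicate 2. Only 1 of the 18 542-only regions was in the Bolt2021 list, against 9 of the 12 wt-only regions.

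The Bmp and Tgf-beta pathway leaned the other way, with 23 wt-only (5.10%) and 11 542-only regions (2.44%) among 451. Id4, an inhibitor of bHLH factors, had 2 of them. At chr13:47869709-47870776 the fold was 10.5 and 9.10 in wt and 2.95 and 4.15 in 542, and at chr13:48130822-48131291 it was 9.23 and 9.81 in wt and 4.24 and 4.34 in 542. Near Bmpr1b, a Bmp receptor of cartilage, the 542-only chr3:141819254-141819982 had 8.66 and 4.91 in 542 and 4.10 and 3.85 in wt. Near Bmper, a Bmp-binding protein, chr9:23487038-23487375 had 6.08 and 6.42 in 542 and 3.81 and 4.202 in wt.

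The retinoic acid pathway had 7 wt-only (5.26%) and 3 542-only regions (2.26%) among 133, of which Rarb, a retinoic acid receptor, had 4 and 1. Its strongest wt-only region (chr14:16740812-16741505) had 7.49 and 7.69 in wt and 3.32 and 4.34 in 542. Rdh10, an enzyme of retinoic acid synthesis, had 2 542-only regions, at chr1:16300151-16300616 with 4.81 and 5.57 in 542 and 3.11 and 3.40 in wt. Bolt2021 held this Rdh10 region in its list at 6.50, above both 542 libraries. The Wnt pathway had 16 wt-only (3.74%) and 10 542-only regions (2.34%) among 428. Near Ror2, a Wnt5a receptor of the growing limb, chr13:53292600-53293502 had 10.3 and 9.45 in wt, 13.3 in Bolt2021 and 4.42 in 542 replicate 1. Near Dkk2, a secreted Wnt antagonist, the 542-only chr3:132353118-132353705 had 5.98 and 9.94 in 542 and 2.93 and 4.55 in wt, with 8.25 in Bolt2021. The Hedgehog pathway had 4 of each kind among 206 (1.94%). Near Gas1, a co-receptor of Hedgehog ligands, chr13:60035420-60036093 was wt-only at 9.08 and 8.75 in wt and 2.83 in 542 replicate 2, whereas chr13:60085017-60085365 was 542-only at 4.98 and 6.04 in 542 and 4.69 and 4.38 in wt.

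Skeletal lists were close to the background. Cartilage genes had 15 wt-only (4.17%) and 10 542-only regions (2.78%) among 360. Runx2, the factor of bone formation, had 3 wt-only regions, the strongest at chr17:45072445-45073612 with 8.29 and 7.69 in wt and 3.78 in 542 replicate 2. Prrx1, a factor of limb mesenchyme, had 2 542-only regions, the strongest at chr1:163251794-163252133 with 7.56 and 5.10 in 542 and 3.08 and 4.55 in wt. Joint and connective tissue genes had 20 wt-only (4.85%) and 14 542-only regions (3.40%) among 412. Here Nfib, a nuclear factor I gene, had 4 wt-only and 6 542-only regions among 50. Near Col5a1, a fibrillar collagen, chr2:27813303-27813777 had 9.67 and 8.404 in wt and 4.06 and 4.72 in 542.

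Lists of other cell types held more 542-only regions than the background, and the muscle and ectoderm lists held more wt-only regions as well. Nerve and neural crest markers had 15 (7.58%) among 198, against 7 wt-only (3.54%). Pou3f2 had 5 of them, Isl1, a LIM homeobox factor, 4 and Pou3f3 3. The strongest near Isl1 (chr13:115825231-115826063) had 6.36 and 7.55 in 542 and 4.39 and 4.202 in wt. Blood and endothelium markers had 11 (5.79%) among 190, against 6 wt-only (3.16%), with the start of Nfe2, an erythroid factor (chr15:103258322-103258753), at 6.67 and 6.02 in 542 and 3.66 and 3.15 in wt. Muscle markers had 7 of each kind (5.88%) among 119, and ectoderm markers 5 of each kind (7.58%) among 66. Olfactory and vomeronasal receptor genes had 16 542-only (7.11%) and 8 wt-only regions (3.56%) among 225, and 1 of the 16 was in the Bolt2021 list. Of these 1463 genes, 10 and 9 had an open start in wt DFL and 8 and 9 in 542 DFL. Genes named Zfp had 41 wt-only (4.06%) and 26 542-only regions (2.57%) among 1010, and H2 histocompatibility genes had 1 of each among 33. The summed levels of the cell type markers at their starts are given above, and their part in these counts was not tested.

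**Figure D5:**
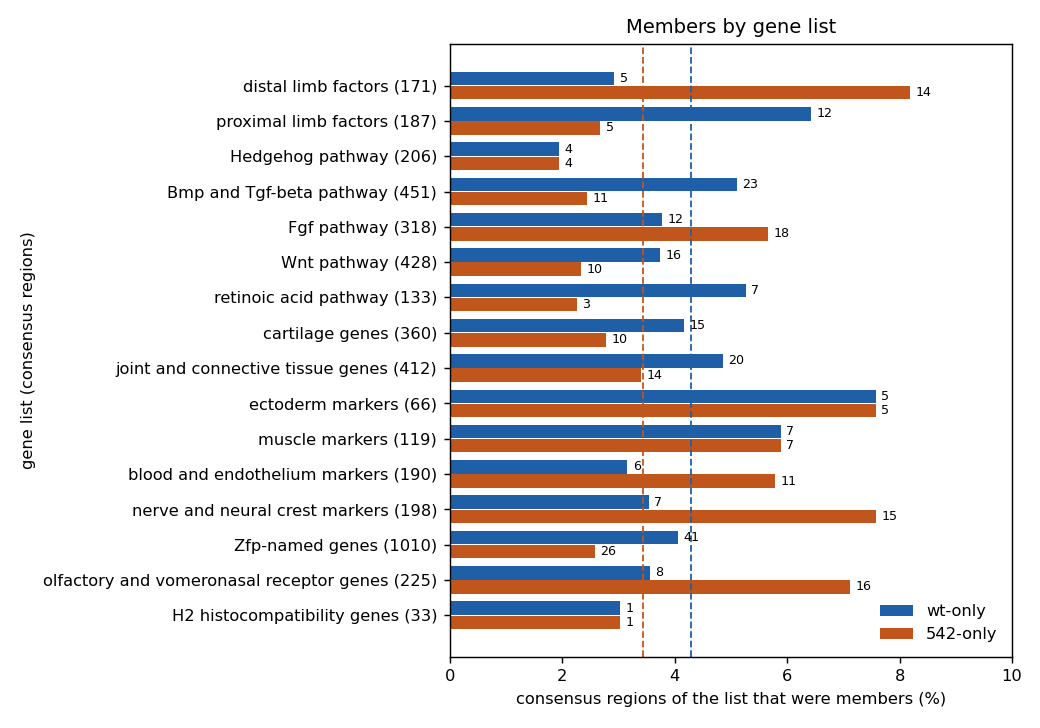
Percent of the consensus regions of each gene list that were wt-only or 542-only (bars from 0, number of members at the bar end), with the values over all consensus regions (4.29% and 3.43%) as dashed lines. Distal limb factors were 542-only at 8.19% and wt-only at 2.92%, and proximal limb factors at 2.67% and 6.42%.

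Sequence features of the members were those of regions away from promoters, with some differences between the kinds. The median content of G and C in the 300 bp on the summit was 45.7% for wt-only and 46.0% for 542-only regions, against 52.3% for regions in all 4 lists. For regions in all 4 lists away from starts it was 47.7%. The letters searched for HOX13 factors were in 504 542-only regions (21.6%) and 458 wt-only regions (15.7%), against 14.1% of all consensus regions and 16.9% of those away from starts. In promoter windows of 300 bp from RefSeq (GRCm38) the same letters were in 7.20%. The homeobox letters TAATTA were in 16.3% of 542-only and 11.0% of wt-only regions, and in 13.1% of consensus regions away from starts. The AP-1 letters TGANTCA were in 9.40% and 10.4%, and AGATAA, of GATA factors, in 11.1% and 8.80%. The E-box CAGCTG was in 24.7% and 23.6%, TGTGGTT, of RUNX factors, in 6.87% and 7.11%, and the letters of the CTCF core in 2.66% and 3.02%. ACAATGG, of SOX factors, was in 3.65% and 3.33%, and GGAAGT, of ETS factors, in 18.98% and 18.01%. All letters were searched on both strands, and the matches are descriptions of letters and no sites.

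Repeats and sequence copies were more common among 542-only regions. Regions whose 300 bp were mostly repeat-masked made up 3.74% of the 542-only and 1.34% of the wt-only regions, against 1.498% of all consensus regions. Another place in the genome with at least 90% identity over at least 80% of the window was found for 48 542-only (2.06%) and 19 wt-only regions (0.653%), against 0.981% of all consensus regions. Of the 112 542-only regions called at no rank in wt, 14.3% were mostly masked and 8 had such a copy. Of the 386 wt-only regions called at no rank in 542, 3.11% were mostly masked and 8 had a copy.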

How the data were processed

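Open chromatin was measured by ATAC-seq in DFL, PFL and FB of wt and 542 embryos. Per the methods of the authors, reads were trimmed with cutadapt, mapped with Bowtie2 to mm10 (wt) or to a mutant genome (542), filtered at mapping quality 30 and for duplicates (Picard), and regions were called per library with MACS2 at q = 0.05. The deposited files give for each region a score, a fold over local background (a ratio), and −log10 p and −log10 q values, all made by the authors. Read totals were not given in the sources used here, and tags were estimated from the deposited −log10 p and fold.

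From these files, repeated regions were merged to unique ones, and the 50000 highest by −log10 q and then fold on chromosomes 1 to 19 were kept per library. Ties were broken by chromosome name and start. In wt DFL replicate 1 and both 542 DFL libraries, the regions at rank 50000 and just past it were tied. Regions of equal values there were thus kept or dropped by position. For 542, 4218 bp were subtracted from positions of chromosome 2 past the insertion. Lists were merged at 1 bp of overlap. Summits were given to the nearest protein-coding start of GENCODE M21. Named regions were the 8 strongest per kind, the 4 strongest at starts, the 2 strongest per kind in each of 16 gene lists, all members of the HoxD locus and 3 windows of 1 Mb per kind. The members and lists were chosen with earlier results of these data known. Replicate numbers were only names. Permutation tests were exact. Copies were sought with minimap2 2.31, and other steps used Python 3.11.15, pandas 2.3.3 and scipy 1.17.1. The procedure was tested on simulated data. The look-up of the same members at any rank was added after seeing the data.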

Additional observations from a re-analysis of the deposited data

Results flagged for a closer look

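Some members found in a single genotype in DFL were found only in the opposite genotype in another tissue. The difference between the tissues was not tested. In PFL, 39 wt-only regions of DFL (1.34%) were 542-only, against 1.88% of all consensus regions, and 32 542-only regions (1.37%) were wt-only, against 2.47%. In FB, 15 wt-only regions (0.515%) were 542-only, against 0.928%, and 19 542-only regions (0.816%) were wt-only, against 0.887%. Each count thus lay below the share over all consensus regions. Near Slc39a8, a metal ion transporter, chr3:135937244-135937992 had a fold of 6.74 and 9.79 in wt DFL and 4.53 in 542 DFL replicate 2, but 3.38 and 3.77 in wt PFL and 5.15 and 4.79 in 542 PFL. Near Prdm2, a zinc finger methyltransferase gene, chr4:142909297-142909980 was 542-only in DFL at 8.22 and 5.10, and wt-only in PFL at 5.79 and 6.03 and in FB at 5.605 and 4.82.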

How the results depend on the processing

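The counts of members moved with the length of the lists. Shares of the consensus regions of each alternative are given in brackets. The 2910 wt-only regions (4.29%) became 924 (3.62%) with the 20000 strongest regions per library, 1551 (3.92%) with 30000 and 9584 (6.16%) with all deposited regions. They became 5186 (7.43%) at a −log10 q of at least 10 and 4771 (6.8%) without the shift of chromosome 2. When absence from all deposited regions was required they became 386 (0.568%), and 1915 (2.65%) when Bolt2021 was required too. Leaving out 1 library gave 4866 to 6770 (7.68% to 10.4%). The 2329 542-only regions (3.43%) became 829 (3.25%) with 20000, 1424 (3.6%) with 30000 and 3090 (1.99%) with all deposited regions. With all deposited regions the wt-only share thus rose and the 542-only share fell. The 542-only regions became 1155 (1.65%) at a −log10 q of at least 10, 4198 (5.98%) without the shift and 112 (0.165%) when absence was required. Leaving out 1 library gave 4046 to 6961 (6.29% to 10.8%). The other alternatives left both counts within 1.5 times. Distances to a start of any gene type had medians of 13870 and 18163 bp, G and C in 200 bp was 47.0% and 47.5%, and Bolt2021 held 98.2% and 86.6% among all its deposited regions, for wt-only and 542-only. The cause was not tested. In the other tissues the wt-only difference kept its direction in each of 12 alternatives, from 2.27 to 16.8 points. The 542-only difference kept it in 10, and turned when the same members were looked up at any rank, to 2.51 points over both tissues and 4.70 points in PFL, an alternative chosen after seeing the data. With the replicate number as a block the differences were 7.56 and -4.82 points, each with an exact permutation p = 0.125, the smallest of 16 assignments, and the numbers do not pair the embryos.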
